A study of Homo sapiens with 4 samples.

Results

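The SLC25 genes encode the mitochondrial carrier family. They were followed here in TPC1 cells, an established human papillary thyroid carcinoma line with a CCDC6-RET rearrangement, during treatment with the RET inhibitor BLU6864. Members were the protein-coding rows of the deposited gene table whose symbol begins with SLC25A and a digit, and 50 of the 20372 rows met this rule. The 50 rows hold 49 symbols, because SLC25A10 is listed under 2 identifiers. SLC25A21-AS1, the antisense neighbor of SLC25A21, also matched by its symbol and is described apart from the carriers. Cells had been exposed to BLU6864 for 6 h or for 24 h, with 2 libraries at each time, and no untreated libraries were analysed here. Both groups are the same line in DMEM with 10% FBS, with no genetic change made for the experiment. The labels give 100 µM BLU6864, whereas the methods of the study give 100 nM, and the 24 h libraries are labelled as a re-analysis. Neither 6 h library carries this label, so time and whatever the label marks cannot be told apart in any comparison below. Nothing in the labels states that the 2 libraries of a time came from separate cultures, so the spread behind the p-values may be technical. With so few libraries, the test shares this spread across genes. A p-value therefore does not rest on the replicates of its own gene alone.

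Carriers of this family sit in the inner mitochondrial membrane and are built from 3 repeats of a pair of membrane-spanning helices. They exchange nucleotides, phosphate, carboxylates, amino acids, cofactors, and iron between the cytosol and the matrix, and so connect oxidative phosphorylation with biosynthesis outside the mitochondrion. A few members work elsewhere, such as SLC25A17 in the peroxisome and SLC25A46 in the outer mitochondrial membrane. Carriers are made in the cytosol and imported through the TOM complex, small TIM chaperones, and the TIM22 complex.

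Total counts lay between 23917056 and 27457040 per library, and the members took between 0.250% and 0.267% of them. Within a time the Spearman correlation of libraries over the genes tested was at least 0.998. Both pairs nevertheless varied beyond counting noise (chi-square over its degrees of freedom, 10.0 and 7.65). The thyroid factor PAX8 had from 19961 to 22045 normalized counts, but NKX2-1 and TSHR had 0 counts in every library. The summed level of the 7 thyroid markers fixed for this check was 21142 and 22554 normalized counts at 6 h and 20522 and 21730 at 24 h, and PAX8 made up most of it. Of the other markers, TG was lower at 24 h (log2 fold change -1.09, edgeR adjusted P = 2.77e-07) and FOXE1 higher (0.84, edgeR adjusted P = 1.37e-07). Of 8 white blood cell markers, 1, CD14, had more than 3 counts in every library, the summed level was between 46.1 and 54.0 normalized counts at 6 h and between 90.5 and 91.7 at 24 h, the pan-leukocyte marker PTPRC had at most 5 counts, and the T cell marker CD3E at most 1. CD14 was called higher at 24 h (log2 fold change 0.95, edgeR adjusted P = 0.000244). Proliferation markers moved with time, from a summed 50403 and 49673 normalized counts at 6 h to 4289 and 4328 at 24 h, with 10 of 10 lower. Their part in the carrier results was not tested.

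Of the 50 members, 41 had enough counts to be tested, and these 41 had at least 10 counts in every library. Between 6 h and 24 h, 11 of them rose and 13 fell with a Benjamini-Hochberg adjusted P under 0.05 in the quasi-likelihood test of edgeR, which defines a call in the text. These are 26.8% and 31.7% of the members tested, beside 33% and 32.6% of all 12876 genes tested. Both shares lie near those of all genes and are no result about the carriers as a family. The median log2 fold change (log2FC) was -0.03 over the members and 0.00 over all genes, where a positive value is a higher level at 24 h, and standard errors (SE) are on this scale. The methods of the study give a downward cutoff, a log2FC under -0.5 with P under 0.01, for DESeq2. Here it was applied to the unadjusted P of edgeR and mirrored upward, and both are called the cutoffs of the methods. They were passed upward by 4 members and downward by 9, beside 17.4% and 17.7% of all genes. The 24 h libraries lay outside the range of the 6 h libraries in 34 members, or 82.9%, beside 81.8% of all genes. Positions are those of the deposited table, in hg19. Counts per library were divided by the TMM-scaled library size and are called normalized counts. In bulk RNA a lower level per cell and fewer cells with the transcript cannot be told apart.

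**Figure D1:**
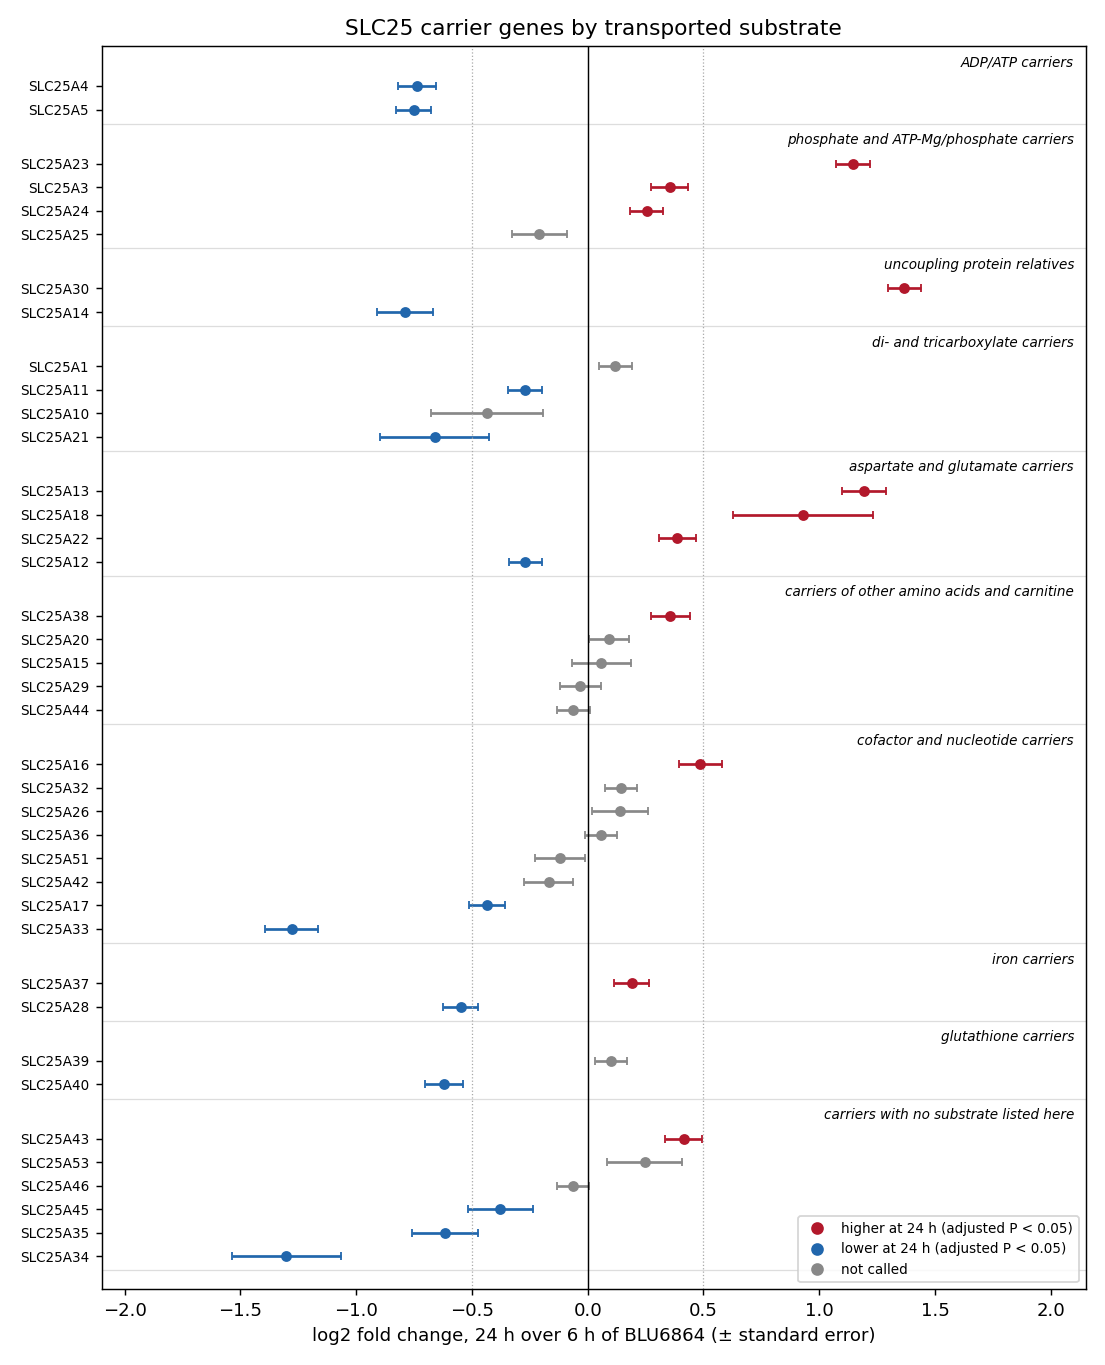
Log2 fold change at 24 h over 6 h of BLU6864 for the carrier genes named in the text, grouped by substrate, with bars of 1 standard error, color by the edgeR call, and dotted lines at the cutoff of 0.5 in either direction. SLC25A30 lies farthest right at 1.37 and SLC25A34 farthest left at -1.30, and both tested ADP/ATP carriers lie left of the line at -0.5.

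Of 4 ADP/ATP carriers, which bring ADP into the matrix and release ATP, 2 were tested and both fell, beside 32.6% lower of all genes tested. SLC25A5, the isoform of dividing cells (ENSG00000005022, chrX:118602363-118605282), had 10233 and 11229 normalized counts after 6 h against 6110 and 6631 after 24 h. Both 24 h values were below both 6 h values, a log2FC of -0.75 (SE 0.0770, edgeR adjusted P = 2.68e-09). SLC25A4, the isoform of heart and muscle (ENSG00000151729, chr4:186064395-186071536), had 1273 and 1185 normalized counts at 6 h and 778 and 696 at 24 h. Its log2FC of -0.74 (SE 0.0817, edgeR adjusted P = 1.15e-08) was close to that of SLC25A5, so the ratio of SLC25A5 to SLC25A4 counts did not separate the times, with 8.04 and 9.48 at 6 h and 7.85 and 9.53 at 24 h. SLC25A6, another widely expressed isoform, had at most 1 count in any library. The gene lies in a region that chromosomes X and Y share, and 99.2% of the 50-base windows of its GENCODE v44 transcript that occur in hg38 occur there more than once. Its counts are therefore uncertain as a level. For SLC25A5, 10.6% of windows were repeated. SLC25A31, the testis isoform, had 0 counts.

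Of 4 tested carriers of phosphate or of ATP-Mg, 3 rose and 0 fell, beside 33% higher and 32.6% lower of all genes tested. SLC25A3, which imports the phosphate used for ATP synthesis and also carries copper (ENSG00000075415, chr12:98987369-98995946), had 16274 and 16704 normalized counts at 6 h and 20324 and 21811 at 24 h. With a log2FC of 0.35 (SE 0.0787, edgeR adjusted P = 0.000320), it rose while the 2 tested ADP/ATP carriers fell. As a share of all member counts, SLC25A3 went from 25.2% and 25.3% at 6 h to 29.6% and 30.6% at 24 h, and SLC25A5 from 15.9% and 17.0% to 8.91% and 9.31%. SLC25A23, SLC25A24, and SLC25A25 encode calcium-regulated carriers that exchange ATP-Mg for phosphate. SLC25A23 (ENSG00000125648, chr19:6436090-6465214) had 2283 and 2280 normalized counts at 6 h and 4775 and 5311 at 24 h. This is a 2.21-fold rise with 24 h libraries well above the 6 h ones (log2FC 1.14, SE 0.0742, edgeR adjusted P = 2.79e-13). Its position overlaps that of CRB3, which had at most 105 counts in a library, and 19.7% of its windows were repeated in the genome. SLC25A24 rose less, with a log2FC of 0.26 (edgeR adjusted P = 0.00283), and without 6 h replicate 2 its adjusted P was 0.0544. SLC25A25 had a log2FC of -0.21 and was not called (edgeR adjusted P = 0.123). The ratio of SLC25A23 to SLC25A25 counts thus went from 8.39 and 9.25 at 6 h to 22.1 and 22.9 at 24 h. SLC25A41, another gene of this group, had between 4 and 11 counts and was not tested.

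**Figure D2:**
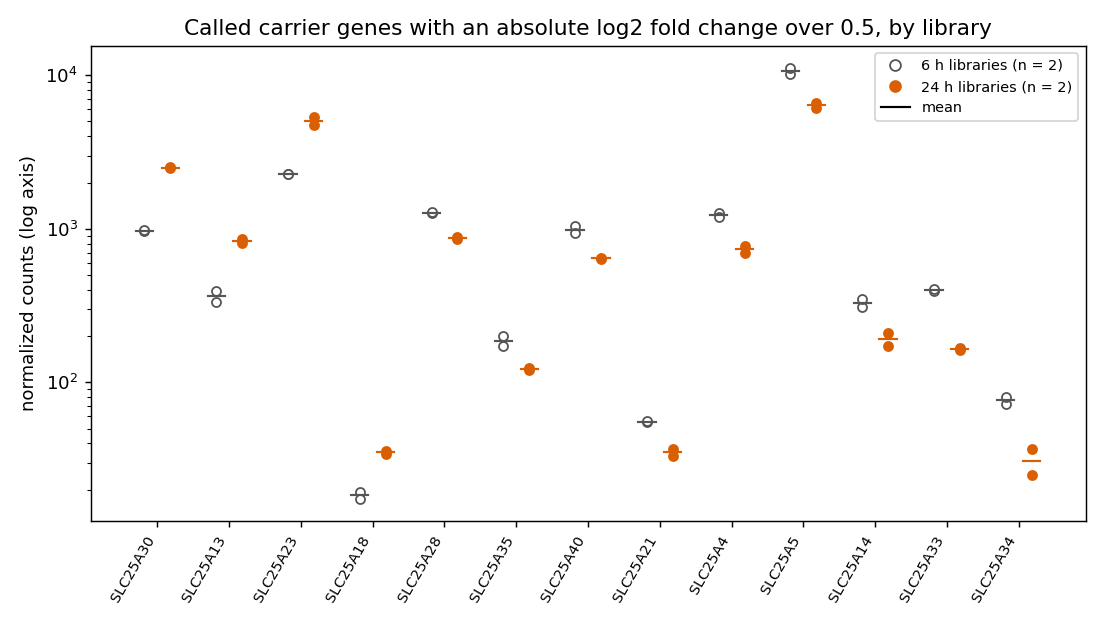
Normalized counts on a log axis in each 6 h library (open circles) and 24 h library (filled circles) of the 13 called carriers with an absolute log2FC over 0.5, ordered by fold change, with a bar at the mean of 2 libraries. In every one of the 13, which were picked by their calls, the circles of the 2 times do not overlap. The same holds for 81.8% of all genes tested. SLC25A18, SLC25A21, and SLC25A34 lie under 100 normalized counts.

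The 2 tested relatives of the uncoupling proteins moved in opposite directions. SLC25A30, known as the kidney mitochondrial carrier (ENSG00000174032, chr13:45967451-45992590), had 965 and 977 normalized counts at 6 h and 2514 and 2494 at 24 h. The libraries of each time differed by far less than the times did, and the log2FC of 1.37 (SE 0.0714, edgeR adjusted P = 2.83e-15), or 2.58-fold, was the largest rise among the members. SLC25A14, the brain mitochondrial carrier also named UCP5 (ENSG00000102078, chrX:129473874-129507335), had 308 and 349 normalized counts at 6 h and 172 and 208 at 24 h. It fell by 0.79 on the log2 scale (SE 0.123, edgeR adjusted P = 3.11e-06). SLC25A27, also named UCP4, had at most 6 counts and was not tested. The classical uncoupling proteins carry other symbols, and of these UCP2 rose with a log2FC of 0.28 (edgeR adjusted P = 0.00170).

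The aspartate and glutamate carriers changed in a way that altered the balance of 2 close paralogues. SLC25A12, or aralar, and SLC25A13, or citrin, are calcium-binding carriers that export aspartate for glutamate in the malate-aspartate shuttle. SLC25A13 (ENSG00000004864, chr7:95749532-95951459) had 392 and 336 normalized counts at 6 h and 853 and 808 at 24 h. Both 24 h values were more than 2-fold above the 6 h values (log2FC 1.19, SE 0.0943, edgeR adjusted P = 1.68e-11). SLC25A12 had 1433 and 1532 normalized counts at 6 h and 1237 and 1223 at 24 h, a small fall (log2FC -0.27, edgeR adjusted P = 0.00194). The position of SLC25A12 overlaps HAT1 over 69642 bp, and HAT1 had a log2FC of -1.01. Without a stated strand setting for the counting, the part of HAT1 reads in the SLC25A12 counts was not tested. The ratio of SLC25A13 to SLC25A12 counts was 0.274 and 0.219 at 6 h and 0.689 and 0.660 at 24 h. Their summed level moved less, from 1846 ± 30.8 to 2061 ± 41.9 normalized counts (SD, n = 2). SLC25A22, the main proton-coupled glutamate importer, rose with a log2FC of 0.39 (edgeR adjusted P = 0.000128). SLC25A18, the second glutamate importer (ENSG00000182902, chr22:18043139-18073760), had 18 and 18 raw counts at 6 h and 36 and 35 at 24 h, a log2FC of 0.93 (SE 0.303, edgeR adjusted P = 0.00917). At these low counts the call was lost with DESeq2 (adjusted P = 0.133), without 6 h replicate 2 (0.0791), and without 24 h replicate 1 (0.0516).

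**Figure D3:**
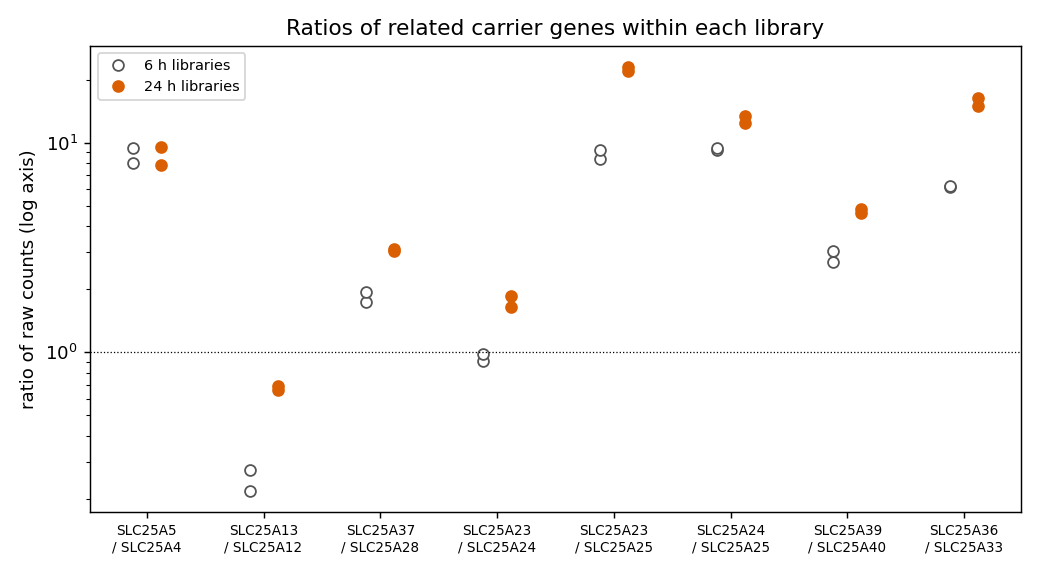
Ratio of raw counts of related carrier genes within each library on a log axis, with 6 h libraries as open and 24 h libraries as filled circles. The SLC25A5 to SLC25A4 ratio overlaps between the times, whereas SLC25A13 to SLC25A12 goes from at most 0.274 to at least 0.660 and SLC25A36 to SLC25A33 from at most 6.204 to at least 14.97.

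Among the di- and tricarboxylate carriers, the abundant members changed little. SLC25A1, which exports citrate for fatty acid synthesis, had 3900 and 3914 normalized counts at 6 h and 4110 and 4382 at 24 h and was not called (log2FC 0.12, edgeR adjusted P = 0.140). SLC25A11, the oxoglutarate and malate carrier of the malate-aspartate shuttle, fell with a log2FC of -0.27 (edgeR adjusted P = 0.00199), and it overlaps RNF167, with -0.43, over 244 bp. SLC25A21, which carries oxodicarboxylates (ENSG00000183032, chr14:37147636-37642071), had 55.1 and 55.6 normalized counts at 6 h and 36.9 and 33.1 at 24 h. Its log2FC of -0.66 (SE 0.236, edgeR adjusted P = 0.0162) rests on few counts. The call was lost with DESeq2 (adjusted P = 0.1645), without 6 h replicate 1 (0.05655), without 6 h replicate 2 (0.0703), and without 24 h replicate 2 (0.104). SLC25A21-AS1 overlaps it over 979 bp and had a log2FC of 0.58 that was not called (edgeR adjusted P = 0.167), with 20 and 11 counts at 6 h and 23 and 25 at 24 h. Reads from this antisense gene and its partner cannot be told apart without a stated strand setting. PAX9 also overlaps SLC25A21, over 1285 bp. It had 39 and 52 counts at 6 h, 60 and 41 at 24 h, and a log2FC of 0.11. The part of PAX9 reads in the SLC25A21 counts was not tested. SLC25A10, the dicarboxylate carrier, had a log2FC of -0.44 and was not called (edgeR adjusted P = 0.120), although it was called lower without 6 h replicate 2 (log2FC -0.70, adjusted P = 0.0384). Its 2 rows overlap over 17166 bp and the second row had 0 counts, and it also overlaps MRPL12 over 4153 bp, with 144 and 174 counts at 6 h, 206 and 220 at 24 h, and a log2FC of 0.38. The part of shared reads was not tested.

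Most carriers of other amino acids and of carnitine did not pass the test. SLC25A38, which imports glycine for heme synthesis, was the exception, with 608 and 616 normalized counts at 6 h, 755 and 813 at 24 h, and a log2FC of 0.36 (edgeR adjusted P = 0.000643). SLC25A20, the carnitine and acylcarnitine carrier of fatty acid oxidation, had a log2FC of 0.09. The values were 0.06 for the ornithine carrier SLC25A15, -0.03 for the basic amino acid carrier SLC25A29, and -0.06 for the branched-chain amino acid carrier SLC25A44. Their standard errors lay between 0.0708 and 0.127. SLC25A2, a paralogue of SLC25A15, had 0 or 1 count per library.

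Of 9 cofactor and nucleotide carriers tested, 1 rose and 2 fell, beside 33% higher and 32.6% lower of all genes tested. SLC25A33, a pyrimidine nucleotide carrier (ENSG00000171612, chr1:9599541-9645237), had 394 and 404 normalized counts at 6 h and 162 and 166 at 24 h. The 2 times were far apart and the replicates close together, a log2FC of -1.28 (SE 0.114, edgeR adjusted P = 1.74e-10). SLC25A36, the other pyrimidine nucleotide carrier, had 2429 and 2506 normalized counts at 6 h and 2645 and 2491 at 24 h, and its libraries overlapped. The ratio of SLC25A36 to SLC25A33 counts accordingly went from 6.16 and 6.204 to 16.3 and 14.97. SLC25A17, the peroxisomal carrier of coenzyme A and related nucleotides, fell with a log2FC of -0.44 (edgeR adjusted P = 2.85e-05), and SLC25A16, linked to coenzyme A in the mitochondrion, rose by 0.49 (edgeR adjusted P = 5.91e-05). SLC25A32, which carries folate and FAD, had a log2FC of 0.14 and an edgeR adjusted P of 0.0748, just above the threshold. With upper quartile scaling it was called higher (edgeR adjusted P = 0.0302). Its position overlaps DCAF13 over 476 bp, which had from 2856 to 3918 counts per library and a log2FC of 0.32. The part of shared reads was not tested. Values of members not called were 0.14 for the S-adenosylmethionine carrier SLC25A26, -0.12 for the NAD carrier SLC25A51 and -0.17 for the coenzyme A carrier SLC25A42. SLC25A51 shares 42.0% of its windows with other places in the genome, and its near copy SLC25A52 had at most 2 counts.

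The 2 iron carriers were called in opposite directions, SLC25A37 under some settings only. SLC25A28, or mitoferrin 2 (ENSG00000155287, chr10:101370282-101380366), had 1262 and 1286 normalized counts at 6 h and 889 and 852 at 24 h (log2FC -0.55, SE 0.0758, edgeR adjusted P = 4.97e-07). SLC25A37, or mitoferrin 1, which is best known from red cell precursors, had 2191 and 2506 at 6 h and 2769 and 2596 at 24 h. The gap between its nearest 6 h and 24 h libraries was smaller than the gap within the 6 h pair. Its log2FC of 0.19 (edgeR adjusted P = 0.0286) was no longer called with DESeq2 (adjusted P = 0.0811) or with library size alone (edgeR adjusted P = 0.0936). With a library left out, the log2FC ranged from 0.10 without 6 h replicate 1 to 0.29 without 6 h replicate 2. The call was also lost without 6 h replicate 1 and without 24 h replicate 1, where the log2FC was 0.10 and 0.15. The ratio of SLC25A37 to SLC25A28 counts was 1.74 and 1.95 at 6 h and 3.12 and 3.05 at 24 h. The glutathione carriers also differed. SLC25A40 (ENSG00000075303, chr7:87462883-87505672) had 1037 and 936 normalized counts at 6 h and 648 and 634 at 24 h, a log2FC of -0.62 (SE 0.0836, edgeR adjusted P = 3.32e-07). Its position overlaps the replication gene DBF4 over 142 bp, which had a log2FC of -1.72. SLC25A39, its more abundant paralogue, had from 2805 to 3070 normalized counts and was not called (log2FC 0.10, edgeR adjusted P = 0.204).

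Of 6 tested carriers with no substrate listed here, 1 rose and 3 fell, beside 33% higher and 32.6% lower of all genes tested. SLC25A34 (ENSG00000162461, chr1:16062900-16067891) had 72.3 and 80.6 normalized counts at 6 h and 24.9 and 37.0 at 24 h. This was the largest fall among the members, by 1.30 on the log2 scale (SE 0.235, edgeR adjusted P = 2.64e-05), in a gene of low abundance. Its paralogue SLC25A35 (ENSG00000125434, chr17:8191081-8198661) had 172 and 201 normalized counts at 6 h and 120 and 125 at 24 h (log2FC -0.62, SE 0.143, edgeR adjusted P = 0.000496). SLC25A45 fell with a log2FC of -0.38 (edgeR adjusted P = 0.0223), a call that was lost with DESeq2 (adjusted P = 0.161), without 6 h replicate 2 (0.1855), and without 24 h replicate 1 (0.141). SLC25A43 rose by 0.41 (edgeR adjusted P = 6.27e-05). SLC25A46, which acts in mitochondrial fission and lipid transfer, had a log2FC of -0.06, and SLC25A53 of 0.25, and neither was called. SLC25A47 and SLC25A48 had 0 counts in every library.

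To rank the genes, levels were divided by the length of the canonical GENCODE v44 transcript, which was found for 49 of the 50 members. The ratios and shares of counts given above are not scaled by length. SLC25A5 was highest at both times, with 8210 ± 539 normalized counts per kilobase (SD, n = 2) at 6 h and 4874 ± 282 at 24 h, ahead of SLC25A3 with 2755 ± 50.8 and 3521 ± 176. The order of these 2 depended on the length used, since the SLC25A3 transcript is long for its protein. Per kilobase of coding sequence, a measure added after the data were seen, SLC25A3 led with 15225 at 6 h and 19453 at 24 h, ahead of SLC25A5 with 12003 and 7126. SLC25A1 took place 3 and SLC25A39 place 4 per kilobase of transcript at both times, although SLC25A39 took places 5 and 6 per kilobase of coding sequence. SLC25A1 at 6 h, with 2524 ± 6.40, was below SLC25A3 by more than the spread of either, and SLC25A39 followed with 1784 ± 14.5. Further down, the neighbors SLC25A24 and SLC25A32 at 568 ± 33.5 and 547 ± 19.3 did not differ by more than the larger of their SDs, nor did SLC25A32 and SLC25A17 at 527 ± 36.1. The largest shift in order was that of SLC25A30, from place 23 at 6 h to place 7 at 24 h. SLC25A23 went from place 7 to place 5 and SLC25A28 from place 6 to place 11. Per kilobase of coding sequence the places were other ones, from 16 to 5 for SLC25A30, from 12 to 4 for SLC25A23, and from 15 to 21 for SLC25A28, each moving the same way. Summed over all members, the level was 65268 ± 1104 normalized counts at 6 h and 69910 ± 1867 at 24 h.

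**Figure D4:**
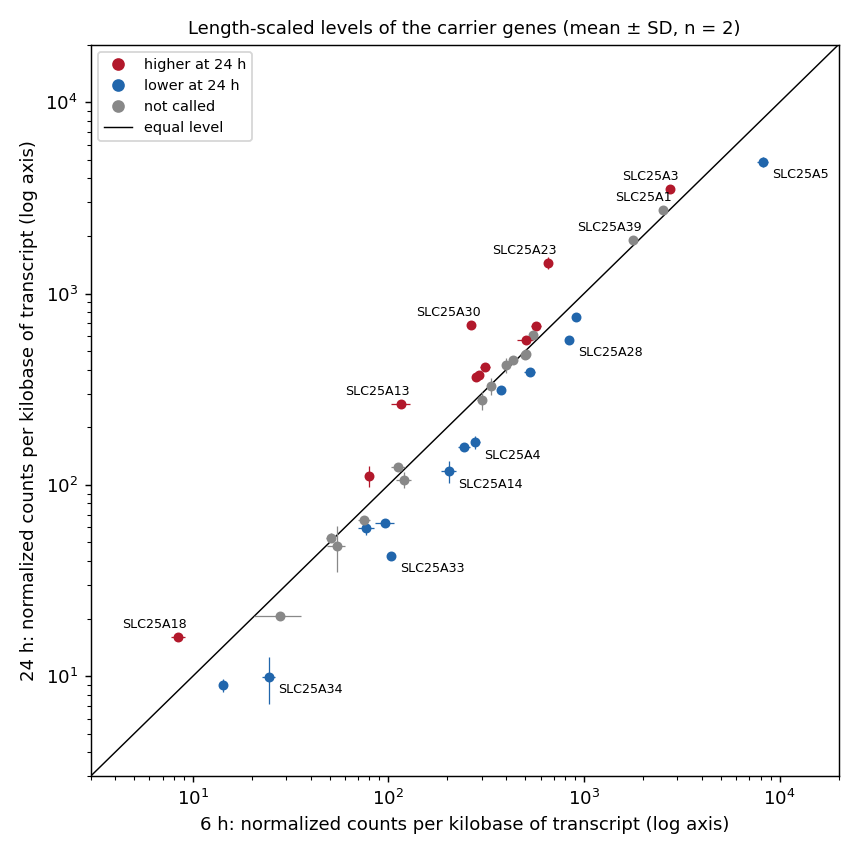
Mean normalized counts per kilobase of transcript at 6 h (horizontal, log axis) and 24 h (vertical, log axis) for the tested carriers matched to a transcript, with bars of 1 SD of 2 libraries and a line of equal level. SLC25A5 stands at the upper end and below the line, at 8210 and 4874, whereas SLC25A30, SLC25A23, and SLC25A13 lie above it.

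The sequence upstream of the start is shown for 4 members that changed strongly, to place the letters of common promoter motifs beside the changes. SLC25A14 was chosen by rule, as the member with an entry in a substrate group whose members moved in opposite directions by more than 0.5, and SLC25A23, SLC25A13, and SLC25A33 were chosen after their values were seen. Entries of the RefSeq promoter table (build GRCh38.p14) were found for 34 of the 40 carriers tested, and SLC25A30 was not among them. Each line gives the 250 bases before the start, 5′ to 3′ on the strand of the gene, with capitals for the letters of 7 motifs on either strand.
SLC25A23, chr19:6459793-6460042, minus strand: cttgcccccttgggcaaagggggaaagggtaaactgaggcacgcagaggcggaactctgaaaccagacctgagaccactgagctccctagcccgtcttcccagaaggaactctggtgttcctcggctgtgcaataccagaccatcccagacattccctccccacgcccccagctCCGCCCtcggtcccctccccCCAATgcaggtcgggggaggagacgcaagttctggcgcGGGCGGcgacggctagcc
SLC25A13, chr7:96322099-96322348, minus strand: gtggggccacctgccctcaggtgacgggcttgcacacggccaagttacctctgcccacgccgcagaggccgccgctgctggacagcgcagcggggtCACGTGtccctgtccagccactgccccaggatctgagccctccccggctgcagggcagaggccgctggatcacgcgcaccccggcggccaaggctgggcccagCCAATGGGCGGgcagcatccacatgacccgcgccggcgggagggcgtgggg
SLC25A33, chr1:9539215-9539464, plus strand: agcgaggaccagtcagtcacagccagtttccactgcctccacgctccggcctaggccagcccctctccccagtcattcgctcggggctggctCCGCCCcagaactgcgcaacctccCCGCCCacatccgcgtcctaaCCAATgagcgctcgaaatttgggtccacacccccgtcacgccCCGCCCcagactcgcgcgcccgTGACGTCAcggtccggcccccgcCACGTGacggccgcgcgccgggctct
SLC25A14, chrX:130339669-130339918, plus strand: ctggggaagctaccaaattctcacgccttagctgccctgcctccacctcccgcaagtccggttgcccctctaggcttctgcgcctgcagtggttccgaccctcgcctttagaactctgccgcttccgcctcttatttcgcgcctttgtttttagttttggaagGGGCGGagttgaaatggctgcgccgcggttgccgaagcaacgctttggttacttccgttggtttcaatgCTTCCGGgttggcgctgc

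The motifs searched were the E-box CACGTG, the NRF1 core GCATGCGC, the cyclic AMP response element TGACGTCA, the CCAAT box, the GC box GGGCGG, the ETS core CCGGAAG, and TATAAA. None of these strings contains another, although their ends can share letters. SLC25A33, which fell, holds the cyclic AMP response element at -49 and an E-box at -26, counted from the start. SLC25A13, which rose, holds an E-box at -154, and SLC25A14 holds an ETS core at -18. The 250 bases of SLC25A23 hold a CCAAT box at -56 and GC boxes at -76 and -18. GC boxes also occur in the windows of SLC25A13, SLC25A33, and SLC25A14, and a CCAAT box in those of SLC25A13 and SLC25A33. Over 43 windows of tested carriers, the E-box occurred in 16.3%, beside 6.34% of all 35116 windows of this length in the table. The GC box occurred in 65.1% beside 42.6%, the ETS core in 23.3% beside 8.52%, the CCAAT box in 44.2% beside 32%, the cyclic AMP response element in 6.98% beside 1.65%, TATAAA in 9.30% beside 10.7%, and the NRF1 core in 0% beside 2.63%. The table also holds windows of noncoding genes, and some carriers have several windows, which share a gene. Of carriers with an entry, the E-box was found in 2 of 8 that rose, 1 of 12 that fell, and 4 of 14 not called. In the same order, the ETS core was found in 3, 3, and 4, and the CCAAT box in 4, 7, and 7. The GC box was found in 5, 9, and 12, the cyclic AMP response element in 0, 1, and 2, and TATAAA in 1, 1, and 1. No motif was tested against the calls. A match of letters describes these windows and is not a bound site.

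Genes that work with the carriers were counted in lists chosen with earlier results of these data known, and each count stands beside the 33% higher and 32.6% lower of all genes tested. Among 5 carrier-fold genes outside the symbol rule, 4 were tested, UCP2 was higher, and 0 were lower, beside 2 lower with library size alone. Of the import machinery, 6 of 15 tested genes (40%) were higher and 1 (6.67%) lower, with a median log2FC of 0.11 beside 0.00 over all genes. TIMM9, a small chaperone that guides carriers across the intermembrane space, rose with a log2FC of 0.77 (edgeR adjusted P = 1.96e-08). Its partner TIMM10 fell by 0.51 on the same scale (edgeR adjusted P = 2.68e-05). In other transporters and channels of mitochondria, 3 of 23 (13%) were higher and 10 (43.5%) lower, led by the ion exchange factor LETM1 at 1.01 and the calcium uniporter subunit CCDC109B at -1.37. The median of this list was -0.10.

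Enzymes that make or use carrier substrates were called in both directions, 8 higher and 8 lower of 21 tested (38.1% each), with a median of 0.04. ARG2, mitochondrial arginase, fell most (log2FC -1.83, edgeR adjusted P = 2.85e-15). In the malate-aspartate shuttle, the mitochondrial enzymes GOT2 and MDH2 rose by 0.29 and 0.44 on the log2 scale, whereas for the cytosolic GOT1 and MDH1 the changes were -0.34 and -0.68. These 4 enzymes and SLC25A11, SLC25A12, and SLC25A13 were set side by side after their values were seen. Of 17 folate one-carbon genes, 6 (35.3%) were higher and 9 (52.9%) lower, with a median of -0.16, from the thymidylate synthase TYMS at -2.63 to the folate transporter SLC46A1 at 1.5. With DESeq2, 5 were lower. Of 13 heme and iron-sulfur cluster genes, 5 (38.5%) were higher and 1 (7.69%) lower, with a median of 0.17, and the gene called lower was PPOX, a late enzyme of heme synthesis, at -0.21. Without 24 h replicate 2, 3 were higher, and the call of PPOX was lost with DESeq2, with upper quartile scaling, and without 6 h replicate 1 or 24 h replicate 2.

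Regulators of mitochondrial biogenesis included 5 higher (50%) and 1 lower (10%) of 10 tested, with a median of 0.23, the growth transcription factor MYC at 2.51, and GABPA, the DNA-binding subunit of nuclear respiratory factor GABP, at -0.28. GABPA was no longer called with DESeq2 or without 6 h replicate 1. The genes of the mitochondrial genome were 0 higher and 11 (84.6%) lower of 13, with a median of -0.48, from MT-ND5 at -0.69 to MT-ND3 at -0.17. Their summed level was 426645 and 626606 normalized counts at 6 h and 370033 and 416090 at 24 h. The 6 h replicate 2 library was above the other 3. Without it 7 genes were lower, and DESeq2 called 4. Other scalings moved the median of all genes to -0.04 (library size alone) or 0.03 (upper quartile), and no direction is read from the medians of the carrier-fold genes and of the substrate enzymes, which are of that size or smaller.

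**Figure D5:**
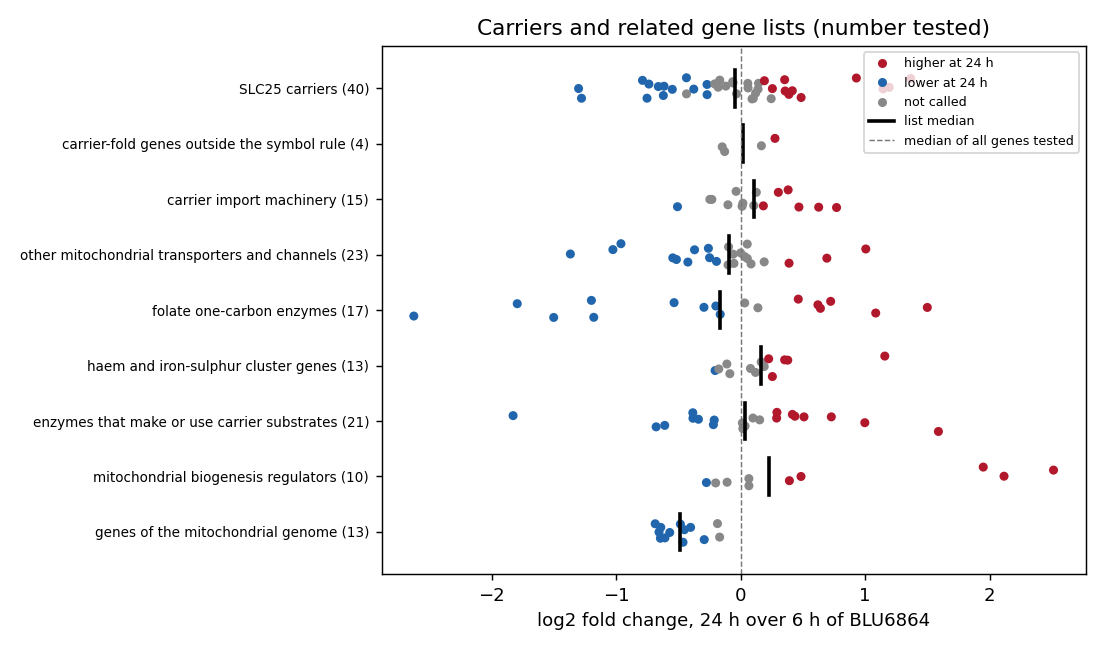
Log2 fold change at 24 h over 6 h of every tested gene in the carriers and in 8 related lists, colored by the edgeR call, with a black bar at each list's median and a dashed line at the median of all genes tested. The carriers spread from -1.30 to 1.37 around a median near 0, and genes of the mitochondrial genome lie to the left with a median of -0.48.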

How the data were processed

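TPC1 libraries from 6 h and 24 h of BLU6864 were compared. The authors aligned reads with STAR (version 2.3 per the labels) to hg19 and deposited the raw count of reads per gene, without normalization. The counting program, annotation version, and strand setting are not given in the sources used here, and the labels and methods differ on single-end or paired-end reads. The authors also deposited a normalized signal, each count divided by 1 size factor per library, with its mean, and the results of their own DESeq2 comparison, namely log2 fold changes, their errors on the log2 scale, Wald scores, and p-values. None of these was used. No (0) columns belonged to other samples. Positions in the table were taken as hg19, the build of the stated alignment, and no hg19 annotation was compared. Of 19457 gene starts, 3.94% lie within 1000 bp of GENCODE v44, which is on hg38, so hg38 was used for sequences only.

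Counts of all 20372 genes entered edgeR 4.0.16 (R 4.3.3) with filterByExpr (12876 genes kept, with 99.97% of counts), TMM, and the quasi-likelihood test with time as the only factor, and P was Benjamini-Hochberg adjusted over all genes tested. Each SE was the absolute log2FC divided by the square root of F. No interval or detection limit is given beyond the model. Precision is set by depth, by 2 libraries per time, and by the spread that the fit shares across genes. On simulated counts for this comparison with 12876 genes, edgeR recovered 97 of 100 genes changed by 1 on the log2 scale and 80 of 100 changed by 0.5, with 3.28% false calls. The simulation gave every gene the same dispersion and changed far fewer genes than were called in the data. These shares may therefore not hold for the data, least of all for genes with few counts. DESeq2 1.42.0 was an alternative. Repeated 50-base windows were counted in both strands of the hg38 chromosomes.

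The members and lists were chosen with earlier results of these data known. Members with an adjusted P under 0.05 and an absolute log2FC over 0.5 are given by library, the other members by log2 fold change, and each list by its largest called rise and fall, with other list genes named after their values were seen. A few genes stay in the counts and are not reported here by name. Markers of thyroid and white blood cells served as checks. Alternatives were DESeq2, upper quartile scaling, library size alone, at least 10 counts in every library, no filter, an adjusted P under 0.01, the cutoffs of the methods, the replicate number as a block, and each library left out in turn. Outliers were not tested with 2 libraries per time. Figures were drawn with matplotlib 3.10.9.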

Additional observations from a re-analysis of the deposited data

How the results depend on the processing

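Of 24 called members, 19 kept their call at an adjusted P under 0.05 in every alternative fit, and 0 changed direction. The other 5 were SLC25A18, SLC25A21, SLC25A24, SLC25A37, and SLC25A45, whose values are given with each gene. The members called higher numbered from 9 to 12 and those called lower from 11 to 13, except with the cutoffs of the methods, which left 4 higher and 9 lower members and 2238 higher and 2278 lower genes in all. These cutoffs require a larger change by construction. Across the fits that each left out a library, from 9 to 11 members were higher and 12 lower, and the lone library of a time was assumed to vary like the other pair. The median log2FC of the members, -0.03273, was -0.09298 with DESeq2, -0.08983 with no filter, -0.07599 with library size alone, -0.003517 with upper quartile scaling, and from -0.07555 to 0.01249 with a library left out. With DESeq2 or no filter 46 members entered in place of 41. What caused the remaining shifts was not tested. Among members not called and named here, the sign changed for SLC25A15 without 6 h replicate 2 (range over the libraries left out, -0.0004807 to 0.1215) and for SLC25A29 without 6 h replicate 2 or 24 h replicate 1 (-0.1372 to 0.07732). Counts of the related lists under the same alternatives were added after the data were seen. Apart from the cutoffs of the methods, a list's count of 5 or more moved by over 1.5 times only for lower genes of the mitochondrial genome (11 to 4 with DESeq2 and 7 without 6 h replicate 2), lower folate genes (9 to 5 with DESeq2 or an adjusted P under 0.01), and higher heme and iron-sulfur genes (5 to 3 without 24 h replicate 2).

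Replicate numbers 1 and 2 occur at both times, but nothing states what they mark, and deviations of same-numbered libraries correlated across genes at 0.0844. With the replicate number as a block, 12 members were higher and 13 lower, with SLC25A32 added at an adjusted P of 0.0352, and 4524 genes were higher and 4448 lower.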

Other observations

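Some members are neighbors in the genome. SLC25A43 and SLC25A5 lie 13922 bp apart on chromosome X in the order of the deposited positions, from 118533023 to 118588441 and from 118602363 to 118605282 of hg19. SLC25A43 rose with a log2FC of 0.41 while SLC25A5 fell with -0.75, and the difference between them was not tested. On chromosome 19, SLC25A41 lies 2300 bp from SLC25A23. SLC25A41 had 8 and 11 counts at 6 h and 4 and 7 at 24 h, whereas SLC25A23 was above 2000 counts in every library. On chromosome 14, SLC25A47, with 0 counts in every library, lies 16790 bp from SLC25A29, which had from 695 to 807 normalized counts.

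Of the 49 members with a GENCODE v44 transcript, 28 had no 50-base window repeated in hg38, among them SLC25A30, SLC25A13, SLC25A28, and SLC25A22. More than 5% of windows were repeated in 10 members, including SLC25A33 with 23.5% and SLC25A3 with 6.10%. Of the 50 members, 16 overlap another gene of the deposited table.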
